A study of Mus musculus with 2 samples.

Results

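The nuclear oxidative phosphorylation genes studied here are the protein-coding genes of the GENCODE M21 annotation whose symbols begin with Nduf, Uqcr, Cox4 to Cox8 or Atp5, together with Sdha, Sdhb, Sdhc and Sdhd. The choice rested on symbols alone and used no measured value. It gave 94 genes, among 55536 annotated genes and 22015 protein-coding genes outside the mitochondrial genome, which are called nuclear protein-coding genes below. The 94 genes carry 93 symbols, because Atp5o has a second identifier. They were measured by total RNA sequencing of left cerebral cortex from male B6CASTF1/J mice, a first-generation hybrid strain, at 18 to 20 months of age. There were 2 libraries, biological replicates 1 and 2 of a single group, each made from 300 ng of RNA with ERCC spike-in transcripts added. Both carry the same donor identifier with a biosample identifier each, and no label says whether they are separate animals, so the spread between them may be technical. With no second condition, the values describe levels in these libraries, and no p-value is given.

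Oxidative phosphorylation is carried out by 5 protein complexes of the inner mitochondrial membrane. Complexes I, III and IV pump protons as electrons pass from NADH to oxygen, complex II feeds electrons in from succinate, and complex V, the ATP synthase, uses the proton gradient to make ATP. A few subunits are encoded by mitochondrial DNA and all others, including every subunit of complex II, by nuclear genes. Neurons depend heavily on this pathway for the energy of ion pumping and synaptic transmission. Several subunits of complex IV exist as paired isoforms, a widely expressed form and a form known from muscle, testis or other tissues.

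Depth over annotated genes was 22827996 expected counts for replicate 1 and 29897545 for replicate 2, where an expected count is an estimated number of reads per gene. Levels are given as TPM, length-normalized abundances that sum to the same total in each library. The 5 neuronal markers and the 5 markers of cortical layers were all detected, with median levels in replicates 1 and 2 of 557 and 500 TPM for neurons and 52.8 and 52.2 TPM for layers. The libraries were not alike in every region marker: all 10 genes of a striatum list were higher in replicate 2, with a median log2 ratio of 1.11. Bulk RNA cannot tell fewer cells of a type from less RNA per cell.

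Of the 94 genes, 89 reached 1 TPM in each library and are called detected, against 58.5% of nuclear protein-coding genes. Their median level was 94.5 TPM, and that of detected nuclear protein-coding genes was 16.2 TPM. They made up 0.427% of nuclear protein-coding genes and held 2.29% of that class's summed TPM in replicate 1 and 2.49% in replicate 2. Their share of the class's counts was lower, 0.633% and 0.702%, and the median length of their leading transcripts was 652 bases. Among the 1000 nuclear protein-coding genes with the highest mean TPM, 49 were members, among the first 500, 26, and among the first 100, 3. Of 75 structural subunits other than the tissue isoforms, all were detected and 69 had a mean level between 30 and 300 TPM. The median coefficient of variation between the libraries was 3.55% over the 79 detected structural subunits.

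**Figure D1:**
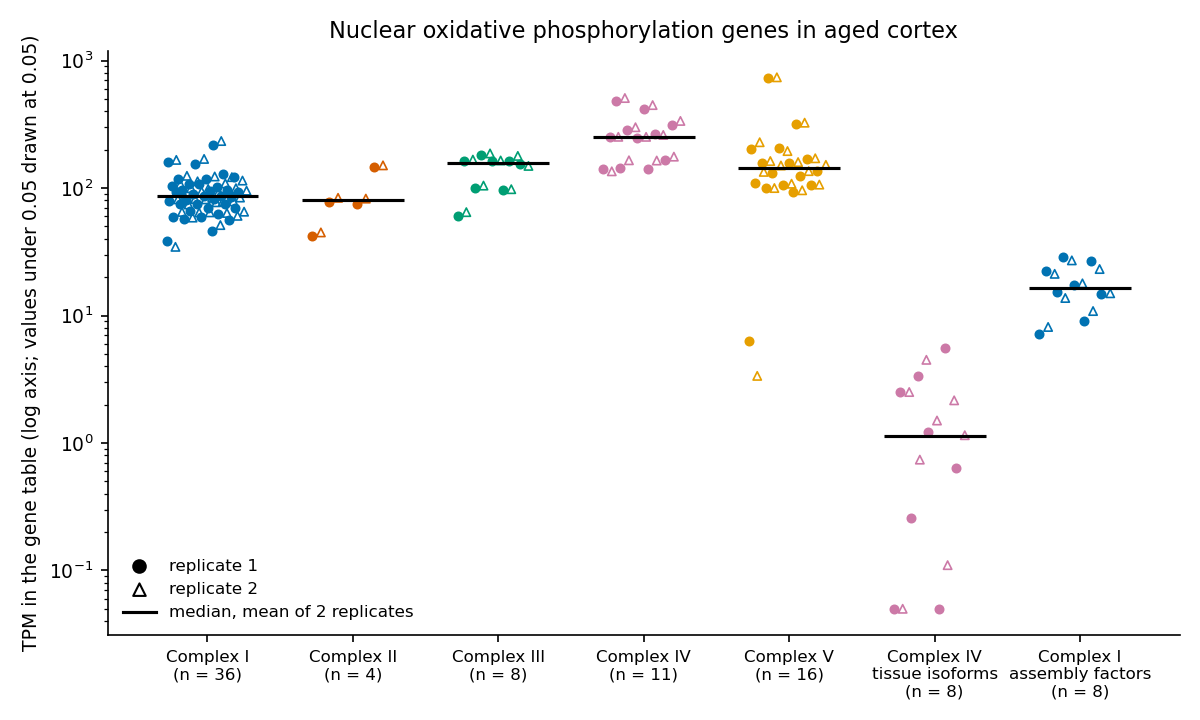
TPM in the gene table (log axis) of each nuclear structural subunit by complex, of the 8 tissue isoforms of complex IV and of the 8 complex I assembly factors; circles are replicate 1, triangles replicate 2, and bars the mean of the 2 libraries' medians. Complex IV without its tissue isoforms has the highest median, 251 TPM, the tissue isoforms lie under 6 TPM, and Atp5g2 is the single low point of complex V.

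Per complex, the median level of the structural subunits was 86.6 TPM in replicate 1 and 85.4 TPM in replicate 2 for complex I (36 genes). It was 76.6 and 83.2 TPM for complex II (4 genes), and 157.5 and 156.9 TPM for complex III (8 genes). Complex IV had medians of 141.9 and 164.4 TPM over 19 genes, which include 8 tissue isoforms, and complex V had 134.0 and 151.2 TPM over 16 genes. As means ± SD of the 2 libraries these were 86.0 ± 0.87 for complex I, 79.9 ± 4.66 for complex II, 157 ± 0.46 for complex III, 153 ± 15.9 for complex IV and 143 ± 12.1 TPM for complex V. The complex IV values spanned that of complex III and overlapped those of complex V, and complex V lay below complex III in both libraries by little more than its SD. Complexes I and II lay below the other 3 in both libraries, and complex I was above complex II by little more than their SDs added. Without the tissue isoforms the complex IV median was 250.01 and 252.37 TPM (11 genes), the highest of the 5 complexes in both libraries. Within every complex the spread over subunits was many times that between libraries, from 36.6 to 226 TPM in complex I and from 62.6 to 184.5 TPM in complex III.

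Complex I, the NADH dehydrogenase, has 7 nuclear core subunits, which hold the flavin and iron-sulfur centres, and 29 nuclear accessory subunits in this annotation. The core subunits had medians of 102.8 and 98.4 TPM and the accessory subunits 85.5 and 83.8 TPM. The highest level was listed for Ndufa3, an accessory subunit, at 218 TPM in replicate 1 and 234 TPM in replicate 2. This rank held in the gene table only, since in the second transcript table of the same libraries, made by another quantifier, Ndufa3 was at 132 and 140 TPM and Ndufb8 at 323 and 364 TPM. Ndufb8, a membrane-arm subunit widely used as a marker of assembled complex I, stood at 159.9 and 166 TPM. Ndufb9, also of the membrane arm, was at 155 and 169 TPM, and Ndufc1 at 128 and 122 TPM. The lowest levels belonged to Ndufb4, at 38.7 and 34.6 TPM, and Ndufb3, at 46.2 and 51.2 TPM. Both ranks depended on the quantification. In the second table Ndufb3 was at 93.4 and 110 TPM, above the core subunit Ndufs8 at 79.8 and 89.5 TPM. Ndufb4 is taken up with its pseudogene.

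The 8 assembly factors of complex I, which help build the enzyme and are not part of it, lay under nearly all structural subunits. Their medians were 16.2 and 16.4 TPM. Ndufaf7, a mitochondrial methyltransferase, was the highest at 29.0 and 27.1 TPM. Ndufaf6 was the lowest at 7.13 and 8.13 TPM. No assembly factor reached the lowest structural subunit of complex I, Ndufb4, in either library.

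Complex II, succinate dehydrogenase, consists of 4 nuclear subunits. Sdha, the flavoprotein that oxidises succinate, was at 147 and 151 TPM. Sdhb, the iron-sulfur subunit, was at 75.3 and 82.6 TPM. The membrane anchors Sdhc and Sdhd were at 77.9 and 83.8 TPM and at 41.8 and 44.9 TPM. Sdha was thus the highest and Sdhd the lowest in both libraries, while Sdhb and Sdhc differed by less than their spread in the gene table. In the second transcript table Sdha and Sdhd kept these ranks. Sdhb, at 134 and 153 TPM, lay well above Sdhc, at 72.6 and 86.1 TPM, there.

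In complex III, the cytochrome bc1 complex, Uqcrh was the highest at 182 and 187 TPM. Uqcrh is the hinge subunit that helps cytochrome c1 meet cytochrome c. Uqcrq followed at 164 and 179 TPM, Uqcr11 at 163 and 167 TPM and the core subunit Uqcrc1 at 162 and 165 TPM. Uqcrb was at 96.4 and 97.9 TPM. Uqcrfs1, the Rieske iron-sulfur protein, was the lowest at 60.4 and 64.7 TPM. The 4 highest subunits lay close together and the 2 lowest lay below every one of them in both libraries.

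Complex IV, cytochrome c oxidase, held 3 of the 4 highest levels by mean TPM in the gene table. Cox4i1, the regulatory subunit that binds ATP, was at 478 and 508 TPM. Cox8a was at 416 and 448 TPM, Cox6a1 at 312 and 336 TPM, and Ndufa4 at 286 and 299.9 TPM. Ndufa4 was first described in complex I, is now placed in complex IV and was counted there. Cox6b1, which joins the monomers of the dimer, was at 268 and 261 TPM. In the gene table these 5 subunits each exceeded every nuclear subunit of complexes I, II and III in both libraries. In the second transcript table Cox6b1 was at 315 and 333 TPM, below Ndufb8 at 323 and 364 TPM. Ndufa4 was at 324 and 365 TPM there. Cox6c, at 635 and 677 TPM, Cox7c, at 485 and 567 TPM, and Cox7a2, at 428 and 490 TPM, lay above Ndufa4 and Cox6b1 in that table.

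Complex V was led by the catalytic subunits of its F1 head. Atp5b, the beta subunit that forms ATP (GRCm38 chr10:128083273-128090391, plus strand), had the highest level of all members, at 727 TPM in replicate 1 and 739 TPM in replicate 2. Atp5a1, the alpha subunit, was at 317 and 326 TPM. Atp5h, of the peripheral stalk, was at 207 and 195 TPM. Atp5g3, 1 of 3 genes for the c subunit of the rotating ring, was at 203 and 229 TPM. Atp5j2 was the second lowest in the gene table, at 93.1 and 96.1 TPM, but not in the second table, where it was at 260 and 282 TPM and Atp5k at 141 and 176 TPM. In the gene table Atp5g2, another c-subunit gene, was far below all others of complex V, at 6.32 and 3.36 TPM. The alpha and beta subunits, which the head holds in equal number, differed in RNA level in both libraries by more than their spread.

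The 13 protein-coding genes of the mitochondrial genome, which supply the remaining subunits, had medians of 1718 and 1480 TPM and mean levels from 173 to 6234 TPM. Their summed TPM was 26067 in replicate 1 and 26113 in replicate 2, and that of the 94 nuclear genes was 10681 and 11078. Of 45 other nuclear genes of the pathway, 44 were detected. The highest were Usmg5, a small ATP synthase subunit outside the symbol rule, at 300.2 and 326 TPM, the outer-membrane channel Vdac1 at 232 and 248 TPM, and the ADP/ATP carrier Slc25a4 at 235 and 241 TPM. Cyc1, cytochrome c1 of complex III, was at 88.9 and 82.1 TPM. Cycs, the somatic cytochrome c that carries electrons to complex IV, was at 22.1 and 18.2 TPM in the gene table. There it lay below every structural subunit other than Atp5g2 and the tissue isoforms. Its level in the second transcript table was not compared. Cyct, the testis cytochrome c, was at 0.12 TPM in replicate 1 and listed at 0 in replicate 2.

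The tissue isoforms were compared with their partners as fixed pairs within each library. Of 12 pairs fixed, 11 had both genes in the annotation, and in all 11 the first gene was higher, with deposited credibility intervals that did not overlap in either library. Log2 ratios are on a scale of TPM plus 0.1. Cox4i1 over Cox4i2, the isoform of lung and of oxygen-sensing cells, was 9.34 and 8.67 on the log2 scale (SD 0.47, n = 2). Cox4i2 itself was at 0.64 and 1.15 TPM. Cox6a1 over Cox6a2, the heart and muscle form, was 6.35 ± 0.21 (SD, n = 2, as below), and Cox6a2 was at 3.36 and 4.49 TPM. Cox7a2 over Cox7a1, likewise the heart and muscle form, was 5.88 ± 0.15, and Cox7a1 was at 2.52 and 2.51 TPM. Cox6b1 over Cox6b2, the testis form, was 6.21 ± 0.91, and Cox6b2 was at 5.56 TPM in replicate 1 and 2.16 TPM in replicate 2. The spread of this last pair came from Cox6b2, which rested on 29 and 17 reads.

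The least expressed isoforms were near the limit of counting. Cox8b, the muscle form of subunit 8, had 1 read in replicate 1 and 4 in replicate 2, against 2790 and 4179 for Cox8a, a ratio of TPM of 1601 (95% counting interval 290 to 63796) and of 605 (236 to 2220). Cox7b2, a testis form, had 0 reads and 1 read, which put Cox7b at least 311-fold higher in replicate 1 and 1230-fold higher (222 to 49028) in replicate 2. Cox8c, also of testis, had 0 reads in both libraries, which put Cox8a at least 740-fold and at least 1109-fold higher, taking 3 reads per library as the limit that a count of 0 allows. These intervals and limits are exact Clopper-Pearson intervals or counting floors and cover counting error only.

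**Figure D2:**
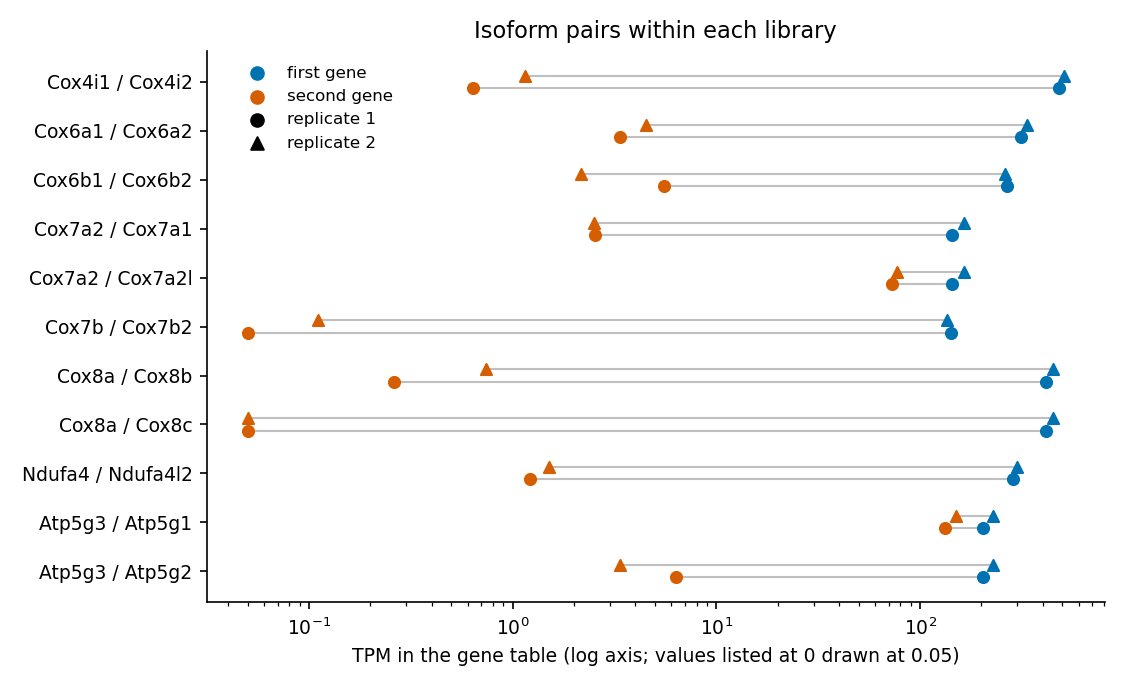
TPM in the gene table (log axis) of both genes of each isoform pair, blue for the first and orange for the second gene, with circles for replicate 1 and triangles for replicate 2. The first gene is higher in both libraries in all 11 pairs, by the least for Atp5g3 over Atp5g1 and Cox7a2 over Cox7a2l.

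Ndufa4l2, the relative of Ndufa4 that is known from hypoxia and from vascular mural cells, was at 1.21 and 1.5 TPM, and Ndufa4 over Ndufa4l2 was 7.66 ± 0.15. Markers of cells in which such isoforms are known were measured beside them. Of 8 pericyte and smooth muscle markers 7 were detected, with a summed level of 67.4 and 63.6 TPM. Of 7 striated muscle markers 2 were detected, summing to 11.02 and 12.78 TPM, and all 6 testis markers were listed at 0 in both libraries. All 3 markers of parvalbumin neurons, a cell type in which Cox6a2 is known, were detected and summed to 122 and 118 TPM, and 1 of them, Tac1, is also in the striatum list. The part of these cell types in the isoform levels was not tested.

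Cox7a2l differs from the other second genes, since it is a factor that ties complexes III and IV into supercomplexes and is no tissue isoform. It was at 72.9 and 76.7 TPM, and Cox7a2 over Cox7a2l was 1.04 ± 0.09. Counting with Cox7a2l the processed pseudogene Gm6969, which shares 100-base stretches with it, the ratio was 0.31, less than 3 SD from 0.

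The c subunit of ATP synthase is encoded by Atp5g1, Atp5g2 and Atp5g3, whose mature proteins are identical and whose import sequences differ. The last 120 coding bases of the 3 genes show how far the parts that encode the mature subunit have diverged at the DNA level. Capitals mark positions where the 3 genes are not all the same, 30 in each, and the genomic spans on GRCm38 include introns.
Atp5g1 (chr11:96073107-96073530, minus strand): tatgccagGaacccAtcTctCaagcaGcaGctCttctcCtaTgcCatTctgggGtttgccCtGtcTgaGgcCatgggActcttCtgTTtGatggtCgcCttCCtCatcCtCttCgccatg
Atp5g2 (chr15:102663017-102665061, minus strand): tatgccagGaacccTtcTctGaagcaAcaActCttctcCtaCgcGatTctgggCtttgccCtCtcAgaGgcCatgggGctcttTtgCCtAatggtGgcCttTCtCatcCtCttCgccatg
Atp5g3 (chr2:73908596-73909191, minus strand): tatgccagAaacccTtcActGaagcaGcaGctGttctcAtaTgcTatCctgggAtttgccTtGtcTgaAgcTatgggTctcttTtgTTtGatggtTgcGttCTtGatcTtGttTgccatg
Over the last 225 coding bases, Atp5g1 and Atp5g2 were 84.9% identical, Atp5g1 and Atp5g3 80.0%, and Atp5g2 and Atp5g3 78.7%. Over the whole coding sequences compared, the longest run shared by any 2 of them was 20 bases, so no 100-base window of these is common to 2 of the genes.

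In the gene table Atp5g3 made up 59.5% and 59.8% of the summed TPM of the 3 genes, Atp5g1 38.7% and 39.3%, and Atp5g2 1.85% and 0.879%. Atp5g3 over Atp5g1 was 0.61 ± 0.01 on the log2 scale and Atp5g3 over Atp5g2 was 5.52 ± 0.75. The second transcript table of the same libraries, made by another quantifier, gave Atp5g2 151 TPM in replicate 1 and 182 TPM in replicate 2, or 22.9% and 22.8% of the 3 genes. In that table Atp5g3 over Atp5g2 was 1.16 ± 0.02. Adding to each gene the pseudogenes that share 100-base stretches with it in the gene table gave Atp5g2 21.6% and 21.4%. The order of Atp5g3, Atp5g1 and Atp5g2 was the same in all of these estimates, and the share of Atp5g2 was not.

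Atp5g2 was not the only member of which processed pseudogenes, intronless copies elsewhere in the genome, repeat stretches of the transcript exactly. Of the 94 genes, 29 (30.9%) had an exact 100-base window of their leading transcript in another annotated gene, on either strand, against 34.7% of 21938 nuclear protein-coding genes and 30.7% of detected ones, a share near the background. In all, 17 (18.1%) shared a window in the same orientation with a pseudogene, against 10.2% and 8.22%, and there were 25 such pseudogenes. The sequences below are shown because reads that fall within them cannot be told apart between the gene and its pseudogene. They are the first 120 coding bases of 3 genes and the matching stretch of a pseudogene on another chromosome (GRCm38), all in lower case because no position differs.
Atp5g2 (chr15:102665775-102667749, minus strand, with introns): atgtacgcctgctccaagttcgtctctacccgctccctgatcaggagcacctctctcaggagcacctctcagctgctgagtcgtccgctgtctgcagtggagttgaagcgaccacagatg
Gm10175 (chr7:23947113-23947232, minus strand): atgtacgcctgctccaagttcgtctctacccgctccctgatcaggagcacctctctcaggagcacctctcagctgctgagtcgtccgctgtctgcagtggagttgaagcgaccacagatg
Ndufb4 (chr16:37654240-37654359, minus strand): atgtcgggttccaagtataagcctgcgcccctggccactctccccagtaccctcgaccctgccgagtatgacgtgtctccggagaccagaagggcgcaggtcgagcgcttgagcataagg
Ndufb4c (chr15:73809777-73809896, minus strand): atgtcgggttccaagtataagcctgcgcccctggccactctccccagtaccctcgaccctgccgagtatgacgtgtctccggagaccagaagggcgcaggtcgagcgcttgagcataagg
Cox7c (chr13:86045825-86046675, minus strand, with introns): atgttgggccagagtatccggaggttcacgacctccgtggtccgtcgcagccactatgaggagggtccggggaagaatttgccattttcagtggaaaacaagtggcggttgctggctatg
Gm12338 (chr11:75599835-75599954, minus strand): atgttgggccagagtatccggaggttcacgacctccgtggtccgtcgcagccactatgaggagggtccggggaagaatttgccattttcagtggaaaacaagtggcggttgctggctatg
The identity went on through the whole coding sequence, 438 bases in Atp5g2, 387 in Ndufb4 and 189 in Cox7c. The same held for the 309 coding bases of Atp5l and its pseudogene Gm10221. Ndufs5 and BC002163 differed at 2 of 318 coding bases, both of which lie in the first 120 bases and are shown in capitals.
Ndufs5 (chr4:123715960-123716079, minus strand): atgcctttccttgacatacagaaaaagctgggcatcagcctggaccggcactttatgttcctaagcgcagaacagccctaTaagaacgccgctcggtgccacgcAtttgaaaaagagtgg
BC002163 (chr16:42955631-42955750, plus strand): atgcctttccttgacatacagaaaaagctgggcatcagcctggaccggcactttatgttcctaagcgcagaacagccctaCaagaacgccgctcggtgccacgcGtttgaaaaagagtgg

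In the gene table the pseudogene was listed above its parent gene in 3 cases. Gm10175 was at 95.1 and 107 TPM where Atp5g2 was at 6.32 and 3.36 TPM, or 93.8% and 97.0% of the pair. Ndufb4c was at 97.9 and 102 TPM where Ndufb4 was at 38.7 and 34.6 TPM. Gm12338 was at 359.6 and 368 TPM where Cox7c, a small subunit of complex IV, was at 142 and 164 TPM. A second pseudogene of Cox7c, Gm10012, was at 28.8 and 32.6 TPM. In the second table Gm10175 was at 0.559 and 0.0907 TPM, Ndufb4c, Gm12338 and Gm10012 were listed at 0, and the parents were at 151 and 182 TPM (Atp5g2), 156 and 171 TPM (Ndufb4) and 485 and 567 TPM (Cox7c).

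Other genes showed the same division less strongly. Gm10221 was at 98.5 and 96.5 TPM beside Atp5l at 124 and 136 TPM, and BC002163 was at 57.5 and 42.9 TPM beside Ndufs5 at 82.5 and 78.6 TPM. Both pseudogenes were listed at 0 in the second table. Gm10250 held 50.8 and 54.2 TPM beside Atp5h, and 0.668 and 0 TPM in the second table. The division ran the other way for Ndufa12 and Ndufab1: Gm15920 was at 23.5 and 24.8 TPM in the gene table and at 54.2 and 67.1 TPM in the second, and Gm4459 at 7.72 and 2.59 TPM and at 43.2 and 52.7 TPM. Over the 25 pseudogenes, the summed level was 911 and 910 TPM in the gene table and 143 and 167 TPM in the second, and 10 and 4 of them reached 5 TPM in both libraries. The annotation lists Gm10175, Gm10012 and AC148174.2, which shares stretches with Cox6a1, as transcribed processed pseudogenes and the others as processed pseudogenes. Over identical stretches, reads of a pseudogene cannot be told apart from reads of its parent. Whether the pseudogenes are transcribed in these libraries was not tested.

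**Figure D3:**
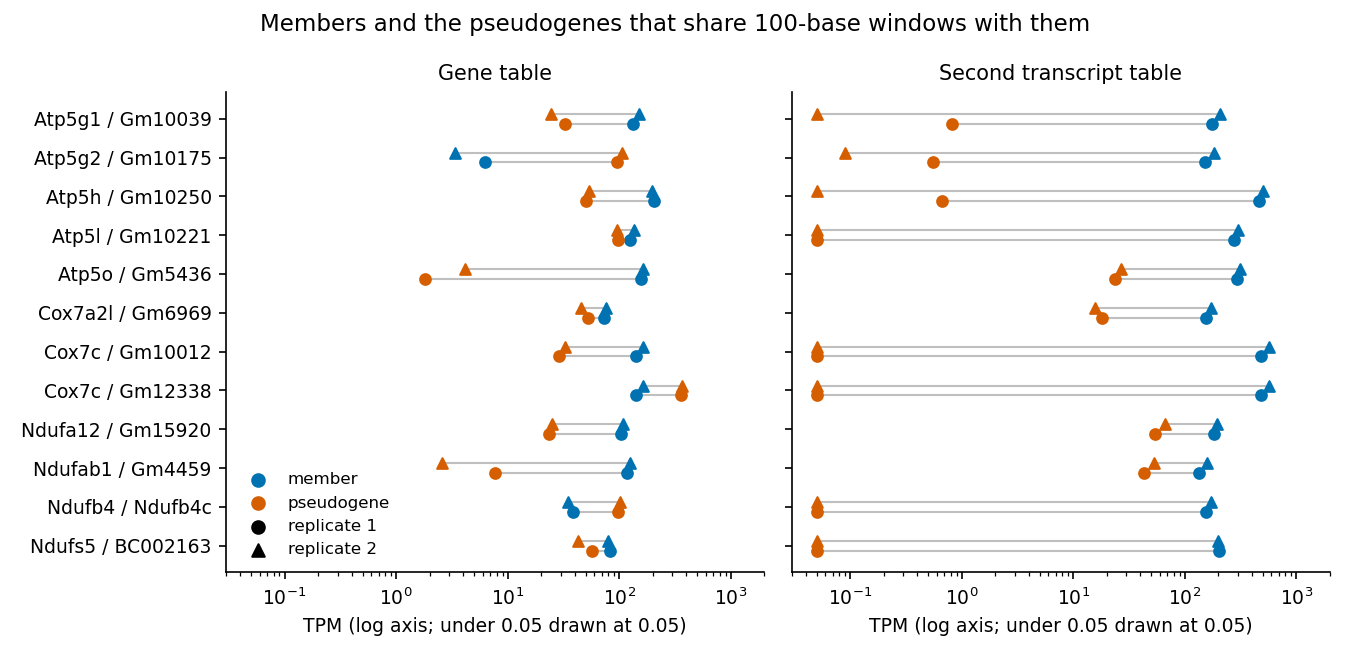
TPM (log axis) of members, blue, and of pseudogenes with which they share 100-base stretches, orange, in the gene table (left) and the second transcript table (right), for pseudogenes at 5 TPM or more in any estimate; circles are replicate 1 and triangles replicate 2. Gm10175, Ndufb4c and Gm12338 lie above their parent genes on the left and at or near 0 on the right.

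Levels in the 2 tables were compared as the log2 ratio of the second table over the gene table, after each was rescaled to the summed TPM of nuclear protein-coding genes. The rescaling was needed because that class summed to 465768 and 444029 TPM in the gene table and 755589 and 750313 in the second. Of 92 members at a mean of 1 TPM or more in either table, 4 were higher in the second table by 1 or more on the log2 scale, where 3.38% of nuclear protein-coding genes were, and 1 was lower, where 0.759% were. Either way, 4.14% of the background was apart by that much. The members' counts, 4 and 1 of 92, are close to the background. Atp5g2 stood farthest out at 4.43 ± 0.78, followed by Cox7b2, which rests on 1 read or none in the gene table, at 2.97 ± 0.88. Ndufa3 was lower in the second table, at -1.46 ± 0.06, and Ndufb4 and Cox7c were higher by 1.43 ± 0.16 and 1.05 ± 0.03. Atp5e, Cox7a2 and Atp5j2, which share no 100-base window with a pseudogene, were higher by 0.92, 0.84 and 0.79. The median was 0.41 over the 17 genes with such a pseudogene and 0.05 over the 75 without.

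**Figure D4:**
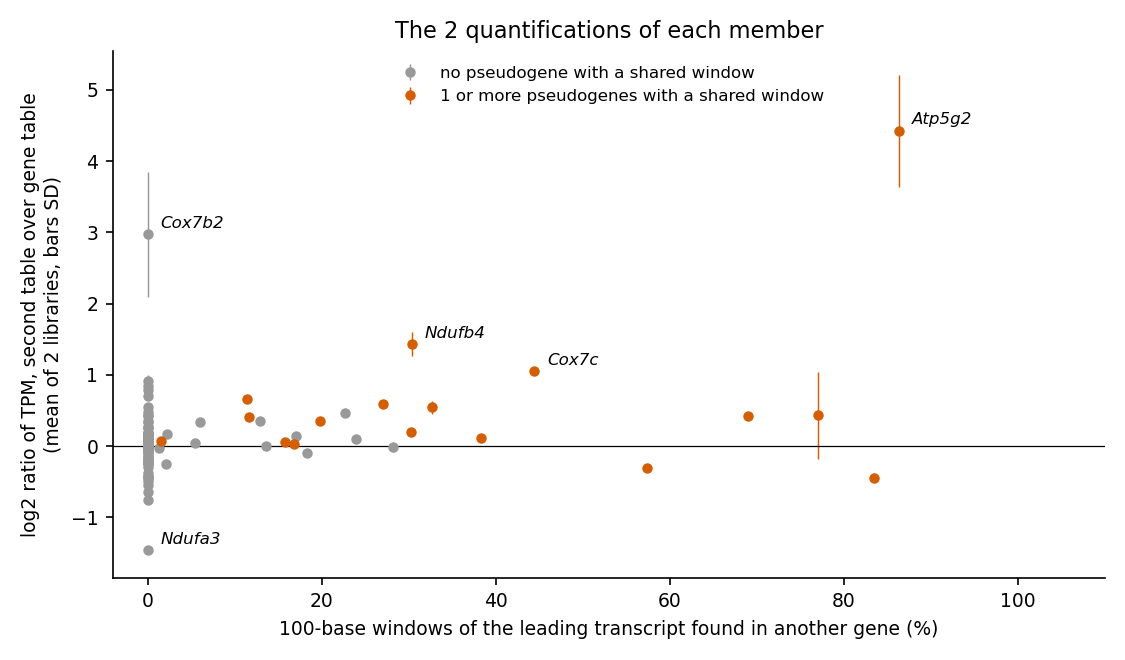
Log2 ratio of TPM in the second table over the gene table (mean of the 2 libraries, bars SD) against the percent of 100-base windows of each gene's leading transcript that occur in another gene on either strand; orange marks the 17 genes with a pseudogene that shares a window. Atp5g2, with 86.4% of its windows shared, is highest at 4.43, and Ndufa3, with none shared, is lowest at -1.46 among the 92 members plotted, those at a mean of 1 TPM or more in either table.

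The leading transcript of a gene, the one with most of its TPM, also depended on the table. Of 80 detected members with 2 or more annotated transcripts, 43 (53.8%) had the same leading transcript in both libraries of both tables, against 65.0% of 11661 detected nuclear protein-coding genes with 2 or more transcripts. In the gene table its median share of a gene's TPM was 83.4%, against 62.3%, and it exceeded 90% in 34 genes (42.5%, against 15.4%). In 13 genes (16.2%, against 8.21%) it was annotated as other than protein-coding, in 8 of these as a retained intron, and 4 of the 13 kept it as the leading transcript in the second table. For Ndufa3 it was a 343-base transcript annotated for nonsense-mediated decay, at 90.8% and 93.5%, which the second table listed at 0. To obtain an effective length of long transcripts, the second table subtracts a median of about 346 and 344 bases in replicates 1 and 2. The gene table subtracts 99 bases. What the second table subtracts from short transcripts was not summarised. Of the 94 genes, 42 had a leading transcript under 600 bases.

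The replicates were compared as the log2 ratio of replicate 2 over replicate 1, from expected counts scaled with TMM, an edgeR method that sets the typical gene to no difference. Of the 94 genes, 84 had a mean count of 100 or more. All 84 ratios were above 0, where 62.3% of nuclear protein-coding genes were. For 56 the 95% counting interval lay above 0, for 0 below it and for 28 it held 0. Of nuclear protein-coding genes at the same count, 28.4% were higher and 14.2% lower. The ratios were small, from 0.02 to 0.39 with a median of 0.18, and none reached 0.5 in either direction, where 2.38% of the background did. The background median was 0.05, and 75 of the 84 genes lay above it.

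By complex, the median ratio was 0.17 in complex I (22 of 36 structural subunits higher), 0.25 in complex II (4 of 4), 0.18 in complex III (7 of 8), 0.22 in complex IV (10 of 11 with enough counts) and 0.17 in complex V (11 of 15). The largest were Atp5e, the epsilon subunit of the F1 head, at 0.39 (0.24 to 0.55), and Cox7c at 0.35 (0.23 to 0.47). Ndufaf2 at 0.33 and Ndufaf8 at 0.29 had intervals that held 0. Atp5s, known as coupling factor B, was at 0.31 (0.06 to 0.57), Sdhc at 0.31 (0.18 to 0.43), Atp5g3 at 0.30 (0.21 to 0.38) and Cox7a2 at 0.30 (0.19 to 0.40). The 2 catalytic subunits with the most reads had nearly the same ratio, 0.19 (0.16 to 0.22) for Atp5b and 0.20 (0.16 to 0.23) for Atp5a1.

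**Figure D5:**
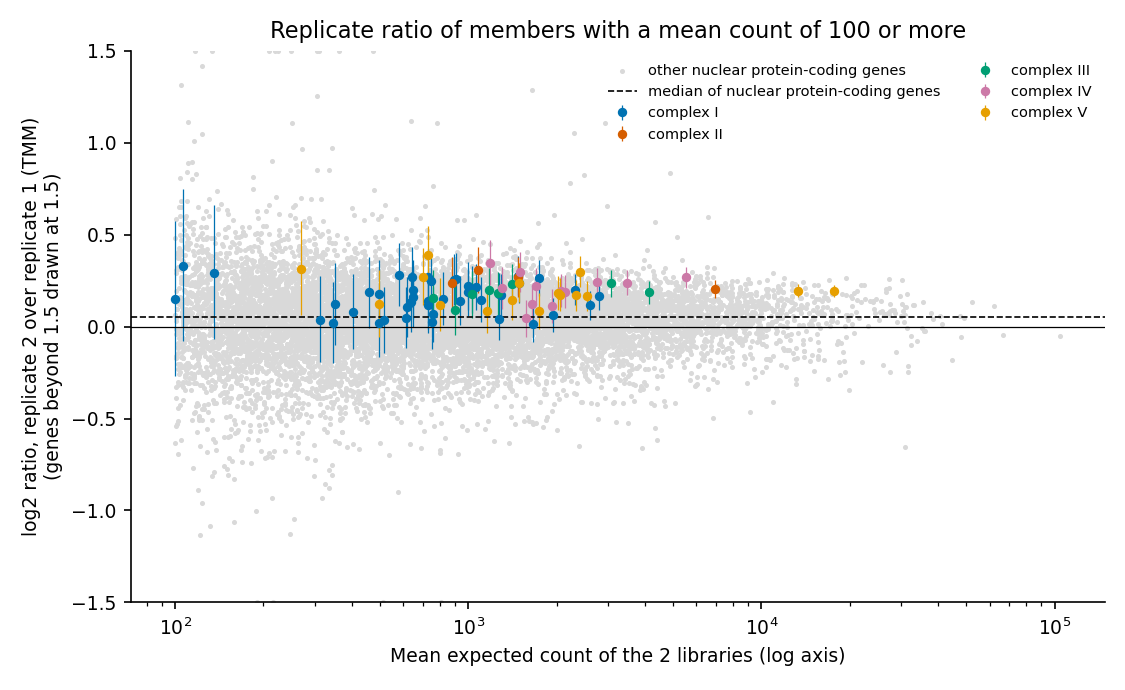
Log2 ratio of replicate 2 over replicate 1 against the mean expected count (log axis) for the members with a mean count of 100 or more, coloured by complex with 95% counting intervals, over the other nuclear protein-coding genes in grey. The members lie between 0.02 and 0.39, mostly above the dashed median of nuclear protein-coding genes at 0.05.

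The calls depended on the scaling. Scaled by spike-in totals, 17 members were higher and 1 lower, and from deposited TPM 15 and 1, with background shares of 7.29% higher and 33.9% lower, and 8.30% and 39.7%. The difference between the median of the members and that of nuclear protein-coding genes was 0.13 under TMM, is the same by construction under spike-in totals, which shift all genes alike, and was 0.13 from deposited TPM. Short and abundant genes moved with it: nuclear protein-coding genes with transcripts under 1000 bases and a mean of 50 TPM or more had a median ratio of 0.20, with 75.1% higher, against 0.18 and 38 of 55 for the members of that class. Among genes of 1000 bases or more, at any level, the medians were 0.19 for 23 members, 17 of them higher, and 0.05 for 10923 genes. Of those genes, 27.5% were higher and 14.9% lower. Among genes with a mean of 50 TPM or more, at any length, the medians were 0.19 for 72 members and 0.10 for 2208 genes. Of these 72 members 53 were higher and 0 lower, against 59.6% and 13.8% of the 2208 genes. These length and level classes were chosen after the ratios were seen. Some markers of cell types also moved: 3 of 4 oligodendrocyte markers were higher and 0 lower (median 0.17). Of 5 neuronal markers, 4 were higher and 0 lower, but their median of 0.06 was near the 0.05 of nuclear protein-coding genes. Other lists were mixed: of 5 cortical layer markers 1 was higher and 2 lower (median -0.08). Of 4 astrocyte markers 1 was higher and 1 lower, and of 3 endothelial markers 2 and 1. Of the 3 choroid plexus markers, Ttr was at 0.97 (0.70 to 1.25) and Kl at -0.04, with an interval that held 0. The third, Folr1, had 1 read in each library. The part of transcript length, of these markers and of the striatum genes' difference between the libraries in these ratios was not tested.

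Of the 45 other nuclear genes of the pathway, 42 had a mean count of 100 or more, with 17 higher, 2 lower and a median ratio of 0.10. The largest ratios were those of Sdhaf4, an assembly factor of complex II, at 0.55 (0.25 to 0.86), Timmdc1, an assembly factor of complex I, at 0.42 (0.19 to 0.65), and Atpaf2, an assembly factor of the F1 head, at 0.33 (0.09 to 0.57). Cycs and Cyc1 were at -0.04 and 0.06, with intervals that held 0. The 2 lower genes were Ppargc1b and Nrf1, a coactivator and a transcription factor of the nuclear respiratory programme, at -0.31 and -0.26, and were named after their values were seen. Of the 13 mitochondrial messenger RNAs, 9 were higher and 3 lower, with a median of 0.14. The largest ratio was that of mt-Co2, named after its value was seen, at 1.25 (1.16 to 1.33), with 166 and 358 TPM. Stretches that the mitochondrial genes share with other genes were not searched for.

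Promoter windows from 250 bases before to 50 after the annotated start were matched for 69 of the 94 genes (RefSeq, GRCm38.p6). Exact matches on either strand were counted for short consensus motifs. The NRF1 motif GCATGCGC, whose letters overlap their own reverse complement, was found in 17.4% of member windows, in 4.19% of 14604 nuclear protein-coding windows and in 5.78% of the 9442 of detected genes. The YY1 motif AAGATGGCG was in 8.70%, 2.31% and 3.43%, and the GABP motif ACTTCCGG in 5.80%, 6.06% and 8.56%. The TATA motif TATAAA was in 10.1%, 11.6% and 6.64%. The ERR motif TCAAGGTCA was in 2.9%, 0.315% and 0.222%, with only 2 member windows holding it. A match describes letters in the window, and binding was not measured. The windows of Cox6a1, Cox8a and Cox8b are shown, since the last 2 are a pair with levels of 416 and 448 TPM and of 0.26 and 0.74 TPM, and capitals mark the NRF1 motif in Cox6a1, GABP in Cox8a and TATA in Cox8b.
Cox6a1 (chr5:115348909-115349208, minus strand): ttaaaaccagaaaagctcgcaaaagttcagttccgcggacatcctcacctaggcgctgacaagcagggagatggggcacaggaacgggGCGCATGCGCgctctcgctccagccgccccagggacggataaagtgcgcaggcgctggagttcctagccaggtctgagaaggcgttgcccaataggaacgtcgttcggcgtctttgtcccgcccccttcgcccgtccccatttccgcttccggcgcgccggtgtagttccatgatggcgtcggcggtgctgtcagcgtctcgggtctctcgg
Cox8a (chr19:7217567-7217866, minus strand): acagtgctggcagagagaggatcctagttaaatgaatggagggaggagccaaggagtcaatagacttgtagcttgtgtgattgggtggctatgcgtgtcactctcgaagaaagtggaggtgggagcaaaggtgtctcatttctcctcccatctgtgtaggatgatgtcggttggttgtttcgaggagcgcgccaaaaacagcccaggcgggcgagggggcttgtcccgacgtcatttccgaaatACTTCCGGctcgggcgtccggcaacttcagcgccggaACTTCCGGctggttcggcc
Cox8b (chr7:140900397-140900696, minus strand): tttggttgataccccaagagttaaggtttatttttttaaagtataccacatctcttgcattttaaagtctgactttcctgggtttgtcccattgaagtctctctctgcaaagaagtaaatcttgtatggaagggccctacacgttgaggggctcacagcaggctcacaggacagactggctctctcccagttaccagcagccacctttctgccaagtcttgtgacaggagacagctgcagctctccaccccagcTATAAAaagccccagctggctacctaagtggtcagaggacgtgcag
The Cox8a window held 19 CpG dinucleotides and 2 GABP matches, which began 6 bases before and 31 bases after the annotated start. The Cox8b window held 2 CpG dinucleotides and 1 TATA match, which began 4 bases after the annotated start. In Cox6a1 the match began 162 bases before the start. Among members, 27 of 94 (28.7%) had another gene that starts within 1000 bases in the opposite direction, against 10.7% of nuclear protein-coding genes and 15.0% of detected ones. The members lay on 19 chromosomes, with at most 9 on 1 of them, and 3 were X-linked.

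The members under 1 TPM in either library were Cox4i2, Cox7b2, Cox8b, Cox8c and the second identifier of Atp5o. That identifier was at 3.71 TPM in replicate 1 and listed at 0 in replicate 2, while the main Atp5o gene was at 159 and 163 TPM. The second identifier has 77.0% of its 100-base windows in other genes, among them the main Atp5o gene, so its values are uncertain. The 10 members under a mean count of 100 were those 5, the other 4 tissue isoforms and Atp5g2.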

How the data were processed

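Gene and transcript tables of 2 libraries were used. Expected counts (reads divided among transcripts), TPM and posterior mean TPM are in the deposited gene table, which has the column layout of RSEM, and the bounds of a credibility interval of TPM, treated as a signal of unknown level, are deposited beside them. The deposited transcript table gives the percent of a gene's TPM per transcript. A second deposited transcript table, in the layout of kallisto, gives estimated counts and TPM and was summed per gene. Assembly mm10 and annotation GENCODE M21 are per the labels and deposited file lists; for aligner, versions and use of strand: not given in the sources used here. Reads were assigned on the reference genome, and hybrid alleles were not modelled.

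Counts were rounded. Replicate ratios used TMM (edgeR 4.0.16, R 4.3.3), 0.5 added to each count, a mean count of 100 or more, and 95% exact Clopper-Pearson counting intervals. The ratio step was tested on simulated data. Isoform ratios used a pseudocount of 0.1 TPM. Tables were compared after rescaling to nuclear protein-coding TPM. Exact 100-base windows were searched in the annotation's transcripts.

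Named genes are the 4 highest and 2 lowest structural subunits per complex, genes of the fixed pairs, the 8 largest replicate ratios, the 8 largest differences between tables, the highest and lowest assembly factor, members under 1 TPM, and 3 highest and 3 most different pathway genes with Cycs, Cyct and Cyc1. Roles and lists, from general knowledge, and the members were chosen with earlier results of these data known. Of the lists fixed, astrocyte (4 of 4 detected), oligodendrocyte (4 of 4), endothelial (3 of 3), choroid plexus (2 of 3) and brown fat (0 of 1) served to describe the tissue. All of these but brown fat were also compared between the replicates. Alternatives were DESeq2 1.42.0 size factors, spike-in totals, TPM, other filters and the second table.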

Additional observations from a re-analysis of the deposited data

How the results depend on the processing

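All 11 pairs kept their direction under the alternatives run. With pseudogene TPM added, 10 of 11 had a mean log2 ratio more than 3 SD from 0, a rule other than that of the credibility intervals. Leaving out replicate 1 or replicate 2 gave 85.4 to 86.6 TPM for complex I, 76.6 to 83.2 for II, 157 to 158 for III, 142 to 164 for IV and 134 to 151 for V, and 90 detected members either way. Thresholds of 0.5 and 5 TPM gave 90 and 84 detected members, and TPM of the second table gave 90.

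Complex medians (I, II, III, IV, V) were 154, 112, 253, 324 and 280 TPM in the second table, where the cause was not tested, and 189, 176, 346, 337 and 314 with the gene table rescaled to nuclear protein-coding genes, by construction. Posterior mean TPM gave 84.6 for I and 152 for III. Subunits with transcripts of 600 bases or longer gave 102 for III and 161 for V, with fewer genes. Subunits averaging at least 1 TPM gave 171 for IV, and leaving out the tissue isoforms, an alternative chosen after seeing the data like the next, gave 251. Adding pseudogenes gave 92.4 for I and 161 for V. The order of III, IV and V thus depended on the setting, and I and II stayed the 2 lowest in those settings.

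Members higher and lower in replicate 2 numbered 56 and 0 under TMM, 17 and 1 by spike-in totals, and 15 and 1 by deposited TPM. With a mean count of 10 or more, and with no filter, 3 were lower, Atp5g2, Cox6b2 and the second Atp5o identifier. Of nuclear protein-coding genes, 12.7% were lower with a mean count of 10 or more and 8.56% with no filter. The members' median exceeded that of nuclear protein-coding genes by 0.13 under TMM (the same by construction under size factors, spike-in totals or centring on the nuclear protein-coding median), by 0.22 with no filter, where low counts enter both medians, and by 0.13 to 0.14 otherwise. Against the nuclear protein-coding median (chosen after seeing the data) 46 were higher and 0 lower, where 17.8% and 20.7% of nuclear protein-coding genes were. No paired analysis was possible because there is 1 group. Depth limits Cox7b2, Cox8b and Cox8c, at 4 reads or fewer per library.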
